A study of Mus musculus with 33 samples.

Results

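Tbx5 occupancy was compared between cells that received Tbx5 together with Gata4 and Mef2c and cells that received Tbx5 alone. The samples were chosen by their labels, as the 4 Tbx5 ChIP-seq libraries of cells with all 3 factors (replicates 2 to 5) and the 3 Tbx5 libraries of cells with Tbx5 alone (replicates 1 to 3), so 7 of the 33 libraries of the series. ChIP-seq (chromatin immunoprecipitation followed by sequencing) counts the DNA fragments that an antibody pulls down with its protein. The series as a whole profiles all 3 factors and input chromatin during direct cardiac reprogramming, in which fibroblasts are pushed toward a heart muscle fate.

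Both groups were cultures of a single immortalized line of neonatal mouse cardiac fibroblasts (strain label Cd-1, genotype alpha-MHC-GFP) that expresses a Cre-excisable large T antigen. Cells with all 3 factors carried retroviruses for Gata4, Mef2c and Tbx5, and cells with Tbx5 alone carried the Tbx5 retrovirus. All cells were cultured with sb431542, a Tgfβ inhibitor, and xav939, a Wnt inhibitor, and were harvested unsorted at day 2. The Tbx5 antibody was a goat polyclonal antibody (C-20). Since the cells were not sorted, fewer cells with Tbx5 and less Tbx5 per cell cannot be told apart. The labels call the libraries biological replicates but name no separate cell isolations, so p-values measure the spread between cultures of this line, which may be technical.

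Tbx5 is a T-box transcription factor needed for heart development and for the cardiac conduction system. Gata4, a zinc-finger factor, and Mef2c, a MADS-box factor, are other core regulators of heart muscle genes, and Gata4 and Tbx5 are known to interact physically and to act at shared enhancers. The 3 proteins together are a standard cocktail for turning fibroblasts into cells that resemble cardiomyocytes.

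The values were read counts over 30815 regions of the mm9 mouse genome, between 201 and 1484 bp long. Library totals over these regions were 580261 to 1431928 with all 3 factors and 334761 to 485430 for Tbx5 alone. The top 10% of regions by counts took up 38.1% ± 1.02 (SD, n = 4) of the counts with all 3 factors and 43.8% ± 1.34 (SD, n = 3) with Tbx5 alone. Replicate 4 with all 3 factors stood apart from the other libraries of its group: its chi-square per degree of freedom was 3.49 to 4.23 against each of them, whereas those 3 gave 1.65 to 2.51 among themselves and the Tbx5-alone libraries gave 1.46 to 1.97. The 5 regions on the Y chromosome held 1, 11, 0 and 1 counts in replicates 2 to 5 with all 3 factors and 7, 4 and 8 counts in the Tbx5-alone libraries. Whether the libraries come from different cell stocks was not tested, and the main counts are given without replicate 4 and with replicate 3 as the only 3-factor library where these differ.

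The Tbx5 level differed between the settings, in both directions, at many of the regions that had enough counts to test. Of 16395 regions tested, 3087 were higher with all 3 factors (18.8%) and 2437 were lower (14.9%), 33.7% in all, by edgeR's quasi-likelihood test at an adjusted p under 0.05. The gains were of regions with little Tbx5 in the cells with Tbx5 alone: the median level of the higher regions went from 16.5 to 55.2 CPM (reads per 1e6 reads in the regions), and their median log2 change was 1.63. The losses were of regions where Tbx5 alone had been strong: the median level of the lower regions went from 104 to 45.6 CPM, with a median log2 fold change of -1.22. The same Tbx5-alone libraries define the calls, which favours a low start for gains and a high start for losses. These levels are therefore a description. Large changes were mostly gains, with 844 higher and 352 lower regions beyond a log2 change of 2, and 88 and 19 beyond 3. The median Tbx5-alone level of these 844 was 9.37 CPM, and the median 3-factor level of the 352 was 11.9 CPM. The Tbx5-alone libraries had the smaller totals, so the low side of the gains rests on fewer counts. The part of depth in this imbalance was not tested.

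In 2600 of the higher regions every library with all 3 factors lay above every Tbx5-alone library, and in 2265 of the lower regions every one lay below. Among all tested regions the groups did not overlap at 3210 (19.6%) above and 3256 (19.9%) below. At 4727 regions (28.8%) the 95% confidence interval of the log2 fold change lay within -1 to 1, and these are called steady here (3105 without replicate 1 and 3087 without replicate 3 of Tbx5 alone). Without replicate 4 with all 3 factors there were 3765 higher and 2881 lower regions. With replicate 3 as the only 3-factor library there were 2171 and 1547, so the lower count fell by more than a factor of 1.5. A contrast that subtracts the change of input chromatin, which has 1 input library for each single factor, called 1071 higher and 612 lower regions.

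Measured against input chromatin, the higher regions mostly held a smaller share of the reads than in input in the cells with Tbx5 alone. Their median log2 ratio of Tbx5 to input, taken from CPM by library totals with 1 CPM added, was -1.34 with Tbx5 alone and 0.53 with all 3 factors. At the lower regions the same ratio was 1.46 with Tbx5 alone and 0.51 with all 3 factors. Over all tested regions it was 0.16 and 0.48. The groups were chosen by the Tbx5 difference itself, so these ratios are a description, and beyond a log2 change of 2 the 3-factor ratio was 0.48 for gains and -1.46 for losses.

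The direction of change varied with how much Tbx5 a region had on average. With the regions cut into 5 equal groups by mean Tbx5 level, 27.5% of the highest group were lower with all 3 factors and 11.9% were higher. In groups 2 and 3 from the bottom the order was the opposite, with 24.9% and 25.1% higher and 9.42% and 8.69% lower. In the lowest group 13.4% were higher and 14.6% lower, an order that turns over when libraries are scaled by their totals (15.4% and 14.2%). Scaling on regions with low enrichment moved the median log2 change of all regions from 0.01 to -0.13, and in the highest group it left 19.6% lower and 7.14% higher. Mean level is computed from both groups, so it is not independent of the change.

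Width made a smaller difference. Of 1380 tested regions at least 500 bp wide, 25.3% were higher and 15.4% lower, beside 18.2% and 14.8% of the narrower regions. The wide regions also had a higher median level (log2 CPM of 6.76 beside 5.52), and more of them were steady as defined above (39.3% beside 27.9%). Their median log2 change was 0.05, beside 0.001 for the narrower regions. The median width was 309 bp for higher regions, 274 bp for lower regions, 282 bp for all tested regions and 229 bp for regions that fell by more than 2 on the log2 scale.

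Gains were most frequent at regions where both Gata4 and Mef2c were enriched in 3-factor cells, and next at those with Mef2c only. Lists were made from libraries that hold no Tbx5 ChIP: a region was on the Gata4 or Mef2c list of the 3-factor cells if that ChIP exceeded the inputs of those cells by a log2 fold of at least 1 at an adjusted p under 0.05 (5975 of 29058 regions, 20.6%, for Gata4, and 9302 of 28307, 32.9%, for Mef2c). Of the 1548 tested regions on both lists, 596 (38.5%) gained Tbx5 and 78 (5.04%) lost it, with a median log2 fold change of 0.61. Of the 4059 on the Mef2c list only, 26.8% gained and 6.75% lost it (median 0.41), and of the 3065 on the Gata4 list only, 21.4% gained and 6.72% lost it (median 0.20). Over all tested regions 18.8% gained and 14.9% lost Tbx5, so the share of gains on the Gata4 list only was close to that of all regions, and in the input-corrected contrast the shares were 6.25% and 6.15%.

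The losses lay mostly outside both lists. Of the 7723 tested regions on neither list, 747 (9.67%) gained and 1879 (24.3%) lost Tbx5, with a median log2 fold change of -0.26. These 1879 were 77.1% of all lower regions, whereas 47.1% of all tested regions and 24.2% of the higher regions were on neither list. Among the 352 lower regions beyond a log2 change of 2, none was on the Gata4 list, 8 were on the Mef2c list and 344 (97.7%) were on neither. The lists come from the same kind of 3-factor cells, and same-numbered libraries of these cells vary together, so list and Tbx5 change are not fully independent. The median log2 ratio of input between 3-factor and single-factor cells was -0.20 for regions on both lists and 0.04 for regions on neither, and its part in the difference was not tested. The classes also started from different Tbx5 levels. With Tbx5 alone the median log2 ratio of Tbx5 to input was 0.83 on neither list, -0.16 on both, 0.04 on Gata4 only and -0.63 on Mef2c only. With all 3 factors these medians were 0.69, 0.79, 0.59 and 0.02. The part of the starting level in the gains and losses of each class was not tested.

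**Figure D1:**
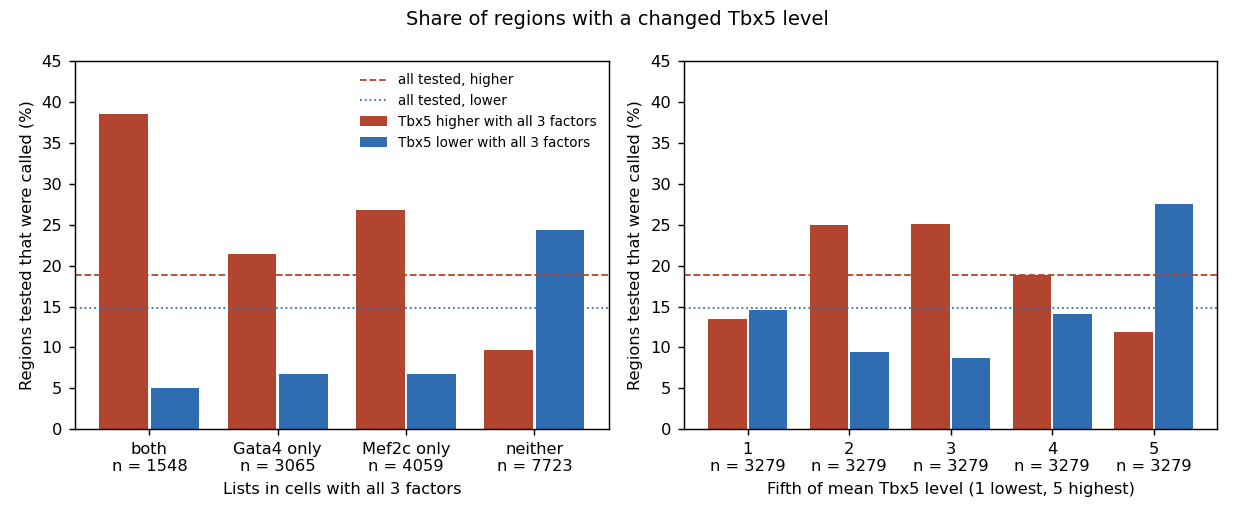
Percentage of tested regions whose Tbx5 level was higher (red) or lower (blue) with all 3 factors, by membership of the Gata4 and Mef2c lists of the 3-factor cells (left) and by group of mean Tbx5 level (right, 1 lowest to 5 highest); dashed and dotted lines are the shares over all 16395 tested regions. Higher calls reach 38.5% on both lists, and lower calls reach 24.3% on neither list and 27.5% at the highest level.

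Without replicate 4 with all 3 factors, 45.4% of the regions on both lists were higher and 7.18% lower, and on neither list 14.9% were higher and 28.4% lower, beside 25.1% and 19.2% of all regions in that fit. Regions on the Mef2c list only then had 31.2% higher and 13.3% lower. With replicate 3 as the only 3-factor library, 14.4% of the regions on the Mef2c list only were higher, which is close to the 14.0% of all regions in that fit, while 31.3% of those on both lists were higher. Over the 7 fits that each left out 1 library, the higher share was 28.2% to 45.4% on both lists, 13.6% to 32.6% on the Gata4 list only, 17.1% to 31.2% on the Mef2c list only and 6.10% to 14.9% on neither, where the lower share was 16.9% to 28.4%. Over all regions the same fits gave 12.3% to 25.1% higher and 9.91% to 19.2% lower. On the Gata4 list only, the higher share was 17.9% without replicate 3 with all 3 factors, beside 17.4% of all regions, and 16.0% without replicate 5, beside 16.7%.

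The lists were also read library by library. For each 3-factor library the median log2 difference from the mean of the Tbx5-alone libraries was taken, with 2 CPM added to each value. Over the 4613 tested regions of the Gata4 list it was 0.29, 0.35, 0.07 and 0.43 in replicates 2 to 5, so replicate 4 was the lowest. Over the 5607 of the Mef2c list it was 0.38, 0.34, 0.48 and 0.41, so replicate 4 was the highest and all 4 libraries were above 0. The Gata4 list held 28.7%, 30.7%, 27.8% and 32.9% of the counts of these libraries and 24.7%, 24.8% and 24.4% of those of the Tbx5-alone libraries, with no overlap between groups. The Mef2c list held 31.0%, 31.4%, 36.9% and 33.3% with all 3 factors and 26.3%, 25.6% and 26.3% with Tbx5 alone, again with no overlap, beside 29.9% to 30.8% of the inputs of 3-factor cells and 33.0% to 34.5% of the single-factor inputs.

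**Figure D2:**
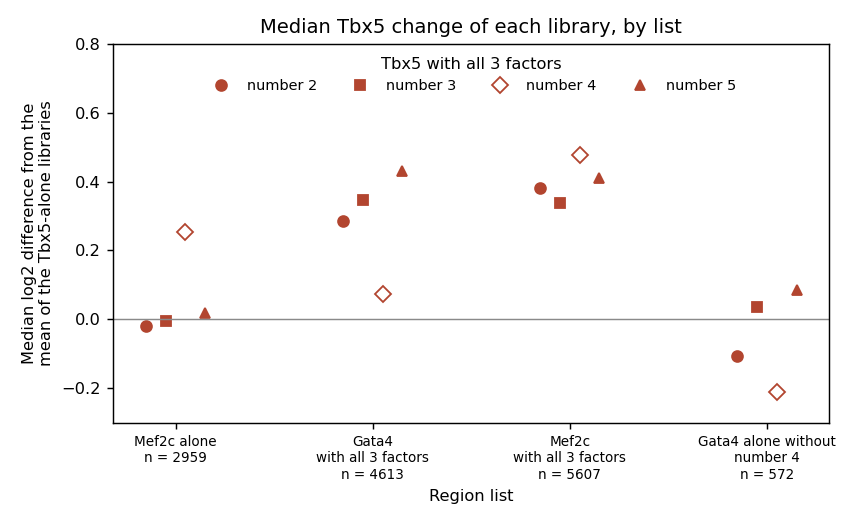
Median log2 difference in Tbx5 CPM (2 CPM added) between each library with all 3 factors and the mean of the Tbx5-alone libraries, over the tested regions of 4 lists made from Gata4 and Mef2c libraries. On the Gata4 list replicate 4 (open diamond) is at 0.07 and the others are at 0.29 to 0.43, and on the Mef2c-alone list replicate 4 is at 0.25 and the others are near 0.

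Lists were also made from the partners expressed alone, where the shares of changed regions were near or under those of all regions. A region was on the Mef2c-alone list if Mef2c, expressed alone, exceeded the 3 single-factor inputs by the same rule (6581 of 17470 regions, 37.7%). Of its 2959 regions tested for Tbx5, 15.6% were higher and 8.65% lower, with a median log2 fold change of 0.09 that became -0.02 without replicate 4. The same rule put 0 of 8439 regions on a Gata4-alone list by edgeR (913 at an unadjusted p under 0.05, and 3 by DESeq2), and without replicate 4 of Gata4 alone it put 1085 of 10952 (9.91%) there. Of these, 572 were tested for Tbx5, and 45 (7.87%) were higher and 46 (8.04%) lower, with a median log2 fold change of -0.02. Both shares are under those of all regions, 18.8% and 14.9%.

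Regions that gained Tbx5 also gained Gata4 and Mef2c more often than all tested regions did. Each factor's change from alone to all 3 factors was estimated in a single fit of all 6 ChIP groups. The Tbx5, Gata4 and Mef2c changes share no library. Same-numbered libraries of the 3-factor cells vary together, however, so the changes are not fully independent. At the 3087 regions that gained Tbx5, the median log2 change was 1.06 for Gata4 and 1.41 for Mef2c, beside 0.18 and 0.26 over all tested regions. Gata4 rose at 1604 of them (52.0%) and Mef2c at 1778 (57.6%), while over all tested regions they rose at 19.8% and 22.8%. At the 2437 regions that lost Tbx5 the medians were -0.11 and -0.08. There Gata4 fell at 167 (6.85%) and rose at 172 (7.06%), and Mef2c fell at 342 (14.0%) and rose at 171 (7.02%). The Gata4 change uses 4 Gata4-alone libraries, of which replicate 4 stands apart, with 21.2% of its counts in its top 10% of regions beside 36.2% to 39.3% in the others. Without that library, an alternative chosen after seeing the data, the median Gata4 change was 1.35 at regions that gained Tbx5, 0.08 at those that lost it and 0.28 over all tested regions. Gata4 then rose at 65.0%, 11.6% and 27.0% of them and fell at 0.939%, 9.11% and 8.00%, so the sign of the median at the lower regions depends on that library.

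The median changes of both partners were largest where Tbx5 rose most. Where Tbx5 rose by more than 2 on the log2 scale (856 regions, called or not), the median change was 1.22 for Gata4 and 1.64 for Mef2c. Where it changed by less than 0.5 either way (7008 regions), the medians were 0.01 and 0.09. Where it fell by more than 2 (352 regions), they were -0.33 and -0.36, which is small beside the Tbx5 median of -2.27. Without replicate 4 of Gata4 alone the 3 Gata4 medians were 1.59, 0.01 and 0.06, so the Gata4 median at the largest losses was then not below 0. Across the 16395 regions the Tbx5 change had a Pearson r of 0.49 with the Gata4 change, 0.44 with the Mef2c change and -0.11 with the input ratio. These are descriptions over regions, which are not replicates and which share base composition and width.

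**Figure D3:**
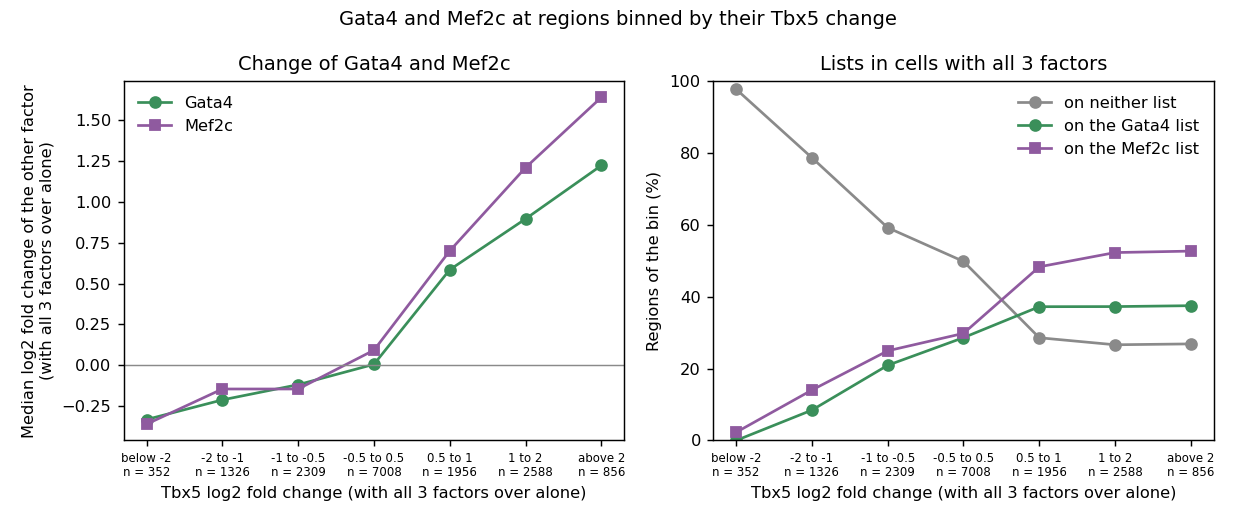
Regions grouped by their Tbx5 log2 fold change (number of regions under each bin), with the median log2 fold change of Gata4 and Mef2c (left) and the percentage of regions on the lists of the 3-factor cells (right). Partner changes climb to 1.22 and 1.64 in the bin of largest Tbx5 gains and lie between -0.36 and -0.12 in the bins of Tbx5 losses, where up to 97.7% of regions are on neither list.

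The 10 largest gains among regions of above-median level, with groups that did not overlap, ranged from 3.49 to 4.33 on the log2 scale, and their widths from 249 to 463 bp. At chromosome 7, 148318083 to 148318437, Tbx5 was at 78.5, 113, 21.5 and 99.7 CPM in replicates 2 to 5 with all 3 factors and at 4.77, 0 and 5.52 CPM in replicates 1 to 3 of Tbx5 alone. Replicate 4 was far under the other 3-factor libraries but still above every Tbx5-alone library. The log2 fold change was 4.33 ± 0.73 (SE, adjusted p = 0.000673), and it rests on 4 counts over the Tbx5-alone libraries, so the fitted size depends on the prior count. Here neither Gata4 (0.68, adjusted p = 0.228) nor Mef2c (0.85, adjusted p = 0.314) had a called change, and the Tbx5 change exceeded that of Gata4 (adjusted p of the difference = 0.00757) and of Mef2c (0.0188).

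The other gains of this size were mostly shared with the partners. Gata4 rose at 9 of the 10 regions and Mef2c at 9, and none of the 10 was on neither list. At chromosome 3, 30585388 to 30585742, Tbx5 was at 165, 123, 70.1 and 134 CPM with all 3 factors and at 7.16, 6.99 and 13.8 CPM alone. The groups did not overlap, and replicate 4 was again the lowest of its group, as it was at 7 of the 10 regions. The Tbx5 log2 fold change was 3.67 ± 0.42 (SE, adjusted p = 6.54e-05), with Gata4 up by 2.42 and Mef2c by 3.50.

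On chromosome 8 a pair of the largest gains lay close together. At 107135129 to 107135377 Tbx5 was at 138, 93.8, 62.1 and 112 CPM with all 3 factors and at 7.16, 10.5 and 8.28 CPM alone, which is a gain of 3.54 ± 0.42 on the log2 scale (SE, adjusted p = 7.85e-05). At 107137018 to 107137304 it was at 120, 56.5, 55.4 and 73.6 CPM with all 3 factors and at 4.77, 14.0 and 0 CPM alone, a gain of 3.67 ± 0.58 (SE, adjusted p = 0.000446). The lowest 3-factor library was well above the highest Tbx5-alone library at both.

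At chromosome 7, 133842533 to 133842995, the libraries of each group agreed closely, with 101, 81.8, 94.9 and 107 CPM with all 3 factors and 7.16, 3.49 and 8.28 CPM alone. The log2 fold change was 3.84 ± 0.37 (SE, adjusted p = 3.69e-05), larger than the Mef2c change of 1.36 there (adjusted p of the difference = 0.00449). A difference from Mef2c was also called at the first region and at chromosome 8, 107135129, and a difference from Gata4 at the first region and at chromosome 2, 121861279 to 121861596 (adjusted p = 0.0485). The remaining regions of the 10 had no called difference, which does not show that the factors changed alike. The 10 gains were picked by their Tbx5 rise, and the same Tbx5 libraries enter the differences, so the called differences are a description. These differences come from the fit without a block, although same-numbered 3-factor libraries vary together. With the block, chosen for these regions after seeing the data, the difference from Gata4 was called at 4 of the 10 in place of 2, and that from Mef2c at 3 in both fits. All 10 Tbx5 gains kept their call in the input-corrected contrast.

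**Figure D4:**
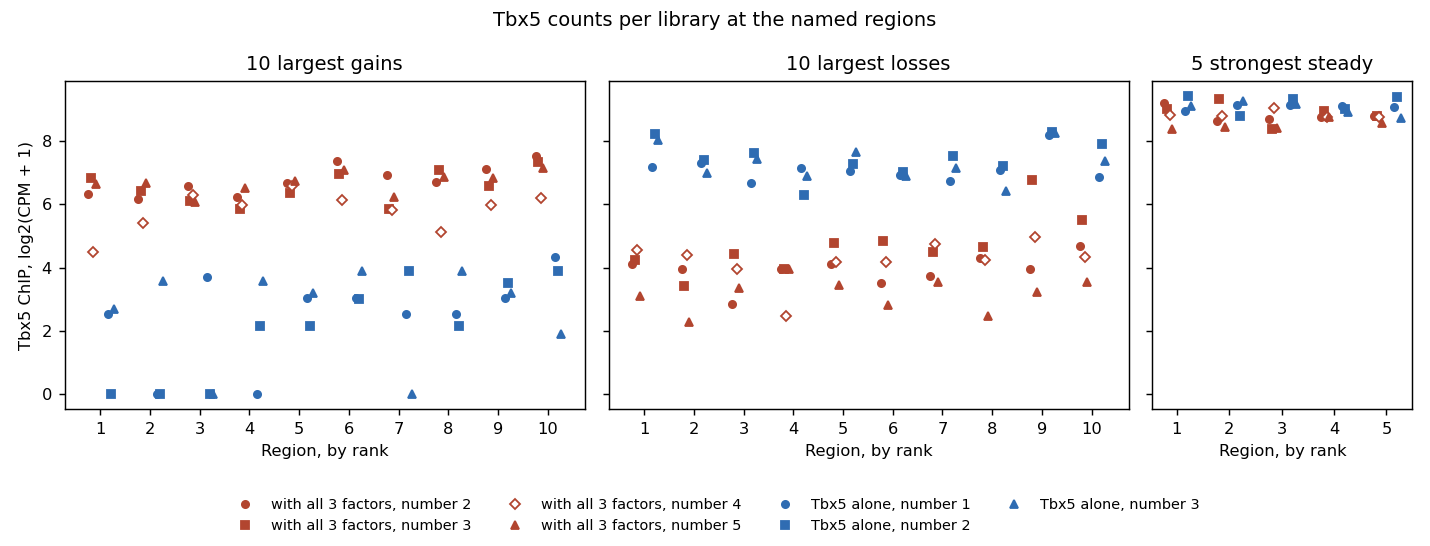
Tbx5 level of each library, as log2(CPM + 1), at the 10 largest gains, the 10 largest losses and the 5 steady regions of highest level, by rank; red symbols are the libraries with all 3 factors (open diamond, replicate 4) and blue symbols the Tbx5-alone libraries. The groups are separate at every gain and loss, as the choice of regions requires, and in the steady regions all libraries lie between 331 and 685 CPM.

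Some regions gained Tbx5 without a called Mef2c change although Mef2c was present in both settings. Chromosome 10, 93212078 to 93213251, is an example, with a Tbx5 change of 1.26. Mef2c there was at 301 CPM with all 3 factors and 328 CPM alone. A larger gain of this kind lies on chromosome 8. At chromosome 8, 11705772 to 11706118, Tbx5 was at 92.9, 67.3, 129 and 52.9 CPM with all 3 factors and at 16.7, 3.49 and 5.52 CPM alone, so the groups did not overlap and replicate 4 was the highest. The Tbx5 log2 fold change was 3.17 ± 0.49 (SE, adjusted p = 0.000397). Mef2c was at 189 CPM ± 57.1 (SD, n = 4) with all 3 factors and 208 CPM ± 47.0 (SD, n = 3) alone, and the Tbx5 change differed from the Mef2c change by 3.28 ± 0.71 (SE, adjusted p = 0.00174). Gata4 rose there by 1.33 on the log2 scale (adjusted p = 0.0319), and the Tbx5 gain lost its call in the input-corrected contrast (2.42, adjusted p = 0.108).

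The 10 largest losses were narrow regions, 203 to 337 bp wide, and every one was on neither list. At chromosome 2, 118197551 to 118197770, Tbx5 was at 16.5, 18.0, 22.6 and 7.67 CPM with all 3 factors and at 143, 297 and 260 CPM alone. All 3-factor libraries were far under the lowest Tbx5-alone library. The log2 fold change was -3.87 ± 0.33 (SE, adjusted p = 2.98e-05). Mef2c there fell by 2.36 on the log2 scale (adjusted p = 4.68e-06), and the Tbx5 change was below that of Gata4 (adjusted p of the difference = 0.00128).

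At chromosome 13, 114017411 to 114017613, Tbx5 was at 14.5, 9.62, 20.3 and 3.83 CPM with all 3 factors and at 157, 168 and 127 CPM alone. At chromosome 5, 136712668 to 136712879, it was at 6.20, 20.4, 14.7 and 9.20 CPM with all 3 factors and at 100, 196 and 171 CPM alone. The groups were separate at both, with changes on the log2 scale of -3.71 ± 0.38 (SE, adjusted p = 4.25e-05) and -3.56 ± 0.35 (SE, adjusted p = 3.69e-05). Gata4 and Mef2c gave 3.69 to 11.6 CPM there in either setting (TMM-scaled), beside an input level of 17.4 to 37.5 CPM (by library totals).

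Over the 10 losses, Gata4 had a called change at none of them and Mef2c fell at 2. Among all 352 lower regions beyond a log2 change of 2, Gata4 fell at 7.67% and Mef2c at 17.9%. At the 10 losses Gata4 lay under input in both settings, as did Mef2c except when alone at the first. This left little room for a partner's fall at most of them. The Tbx5 change was below that of Gata4 at 9 of the 10 losses and below that of Mef2c at 8. Over all regions of that fit the shares were 2.64% and 5.06%. The 10 losses were picked by their Tbx5 fall, and the same Tbx5 libraries enter the differences. These counts are therefore a description. The difference from Mef2c was not called at the first of the 10 losses (adjusted p = 0.057), and neither difference was called at chromosome 2, 77757143 to 77757404. Tbx5 there was at 14.5, 107, 30.5 and 8.43 CPM with all 3 factors and 291, 308 and 304 CPM alone. Replicate 3 was far above the rest of its group, and the inputs also differed, at 212 CPM in 3-factor cells and 498 CPM in single-factor cells. Its log2 fold change was -2.90 ± 0.60 (SE, adjusted p = 0.00451), and the call was lost without replicate 4 with all 3 factors (adjusted p = 0.0679) and without replicate 1 (0.0571) or 2 (0.0630) of Tbx5 alone. It was also lost in the input-corrected contrast (-1.52, adjusted p = 0.541), the only one of the 10 losses for which this was so. With the replicate block the difference from Gata4 was called at all 10 losses and that from Mef2c at 9.

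Of the 2437 regions that lost Tbx5, 171 (7.02%) had a called gain of Mef2c, beside 22.8% of all tested regions. An example lies on chromosome 16. At chromosome 16, 76103164 to 76103419, Tbx5 was at 26.8, 28.9, 49.7 and 26.8 CPM with all 3 factors and at 117, 175 and 124 CPM alone. Tbx5 changed by -2.04 ± 0.28 (SE, adjusted p = 0.000169) with no overlap between groups. Mef2c rose from 8.17 CPM ± 2.18 (SD, n = 3) alone to 35.8 CPM ± 11.5 (SD, n = 4), a log2 change of 2.14 (adjusted p = 0.000461), and the changes of the 2 factors differed by -4.20 ± 0.61 (SE, adjusted p = 2.5e-05). In the input-corrected contrast the Tbx5 loss was not called (-1.85, adjusted p = 0.0795). This region and the one with steady Mef2c on chromosome 8 were singled out after their values were seen.

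The largest gains and losses above were picked by size of change, and the regions that follow were picked by Tbx5 level. That the latter changed less follows from this choice and is not a result about strong regions. The 5 gains of highest level with a log2 change above 1 were 475 to 1174 bp wide and rose by 1.19 to 1.76, and Gata4 rose at all 5. At chromosome 15, 68243764 to 68244614, Tbx5 was at 456, 367, 349 and 417 CPM with all 3 factors and at 136, 115 and 99.4 CPM alone. The groups did not overlap, and the log2 fold change was 1.76 ± 0.20 (SE, adjusted p = 6.23e-05). Gata4 there rose by 2.95 and Mef2c by 3.16, and the Mef2c change exceeded that of Tbx5 (adjusted p of the difference = 0.0306). Over these 5 gains the difference from Gata4 was called at 0 without the replicate block and at 2 with it, and that from Mef2c at 2 and 3.

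The 5 losses of highest level fell by 1.00 to 1.41 on the log2 scale and were 270 to 670 bp wide. At chromosome 8, 123782021 to 123782435, Tbx5 was at 233, 228, 174 and 173 CPM with all 3 factors and at 429, 493 and 414 CPM alone. The highest 3-factor library was well under the lowest Tbx5-alone library, and the log2 change was -1.14 ± 0.18 (SE, adjusted p = 0.000441). Gata4 changed by 0.70 there (adjusted p = 0.0711), and the Tbx5 change was below it (adjusted p of the difference = 0.0034). The other strong loss with a called difference from both partners, chromosome 15, 27927248 to 27927884, fell by 1.12 ± 0.19 (SE, adjusted p = 0.000665), from 382, 503 and 489 CPM alone to 167, 212, 260 and 199 CPM. Its inputs were at 71.1 CPM in 3-factor cells and 122 CPM in single-factor cells. In the input-corrected contrast none of the 5 strong losses was called, with changes from -0.32 to -1.05 and adjusted p from 0.206 to 0.705. With the replicate block the difference from Gata4 was called at all 5, in place of 3, and that from Mef2c at 4, in place of 2. The 5 losses were picked by a called Tbx5 fall that enters the differences, so these counts are a description.

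Steady Tbx5 could go with a rise of the partners: of the 5 steady regions of highest level, Gata4 rose at 2 and Mef2c at 4. Such rises were not frequent among steady regions. Over all 4727 of them Gata4 rose at 16.1% and Mef2c at 17.2%, beside 19.8% and 22.8% of all tested regions. At chromosome 6, 91492764 to 91493432, Tbx5 was at 593, 512, 454 and 334 CPM with all 3 factors and at 491, 685 and 552 CPM alone. The groups overlapped, and the log2 change was -0.29 ± 0.20 (SE, adjusted p = 0.294). Gata4 rose by 2.07 (adjusted p = 1.29e-05) and Mef2c by 1.75 (adjusted p = 0.000735) at the same region, and the Tbx5 change was below both (adjusted p of the difference = 0.000867 and 0.00555).

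A second steady region lies near it, at 91495706 to 91496623, where Tbx5 was at 432, 494, 431 and 432 CPM with all 3 factors and at 544, 510 and 481 CPM alone. Mef2c rose there by 1.64 (adjusted p = 0.00019), and at chromosome 11, 49624480 to 49625246, it rose by 1.47 (adjusted p = 0.00103) beside a Tbx5 change of -0.35 ± 0.18 (SE, adjusted p = 0.142). Tbx5 on chromosome 15, 38496672 to 38497630, was within the steady bound and was also called lower, at -0.57 ± 0.19 (SE, adjusted p = 0.0302). That call was lost without any one of 6 libraries, replicate 4 with all 3 factors being the exception, with adjusted p from 0.057 to 0.15 and changes from -0.42 to -0.62, and in the input-corrected contrast (-0.79, adjusted p = 0.246). The last of the 5, on X, had inputs of 398 CPM in 3-factor cells and 704 CPM in single-factor cells and was on neither list.

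Over all regions, the Tbx5 change was tested against the change of each partner. It was above the Gata4 change at 289 of 30663 regions (0.943%) and below it at 811 (2.64%). It was above the Mef2c change at 2519 (8.22%) and below it at 1551 (5.06%). These counts moved with the treatment of replicates: with replicate number within each setting as a block they were 2649 and 2823 for Gata4 and 4567 and 3007 for Mef2c. Without replicate 4 of Gata4 alone they were 1178 and 1788 for Gata4. Under scaling by library totals they were 1080 and 3498 for Mef2c, so the order of the Mef2c counts turned over. The count above the Gata4 change was 142, 166, 608 and 126 without replicate 2, 3, 4 or 5 with all 3 factors, and 92 and 124 without replicate 1 or 2 of Tbx5 alone. The count below it was 512, 378 and 494 without replicate 2, 3 or 5 with all 3 factors and 443 without replicate 1 of Tbx5 alone. Without that last library the Mef2c counts were 1442 above and 1004 below, and without replicate 3 with all 3 factors 1015 were below.

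Where both regions of a neighbouring pair were called, the direction was mostly the same (456 pairs, beside 93 opposite). Among 3938 pairs of adjacent tested regions with a gap of at most 10000 bp, both were higher in 315, both lower in 141 and 1 was higher and the other lower in 93. In 1492 pairs 1 region was called and the other was not, and in 1897 neither was. Over all tested regions 18.8% were higher and 14.9% lower, and whether neighbours share calls more often than these shares give was not tested. Of 796 runs of neighbouring regions with 3 or more tested, every tested region was higher in 19 and lower in 4, while 72 runs held calls in both directions and 244 held none.

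One run of gains spans chromosome 7, 135280526 to 135292989, and all 4 of its regions rose, by 1.47 to 2.53 on the log2 scale. At its strongest change, 135281022 to 135281351, Tbx5 was at 116, 105, 78.0 and 94.3 CPM with all 3 factors and at 21.5, 10.5 and 16.6 CPM alone, with no overlap (2.53 ± 0.32 SE, adjusted p = 0.000113). Gata4 and Mef2c rose at all 4 regions as well. The first region of a run on chromosome 6, 58846419 to 58850433, had 74 counts with all 3 factors and 2 with Tbx5 alone, a ratio by library totals of 11.8 with an exact 95% interval of 3.15 to 99.0 that covers counting error only. The last region of this run rose by 0.87, and its call was lost without replicate 3 or 5 with all 3 factors or without any Tbx5-alone library (adjusted p from 0.0608 to 0.183). Of its 4 regions, 3 lost their call in the input-corrected contrast (adjusted p from 0.0612 to 0.181).

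Of the 3 longest runs of losses, the one with the largest median change lies on chromosome 16, 43697899 to 43702613, where 3 regions fell by 1.32 to 1.93 on the log2 scale. At 43702263 to 43702613 Tbx5 was at 10.3, 19.2, 14.7 and 7.67 CPM with all 3 factors and at 52.5, 48.9 and 46.9 CPM alone, with no overlap (-1.93 ± 0.38 SE, adjusted p = 0.00158). At the middle region, 43701960 to 43702163, Gata4 rose by 1.41 (adjusted p = 0.0213) while Tbx5 fell by 1.32, and the difference was called (adjusted p = 0.00325). All 3 regions were on neither list of the 3-factor cells, and none was called in the input-corrected contrast (changes from -0.88 to -1.87, adjusted p from 0.0912 to 0.456).

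The Tbx5 change also moved with the input chromatin of whole chromosomes. Over the 20 chromosomes with tested regions, the median Tbx5 log2 change and the log2 ratio of input share between 3-factor and single-factor cells had a Pearson r of 0.72 and a Spearman rho of 0.69, as a description over chromosomes measured in the same libraries. On chromosomes 8 and 15 the input ratio was 0.22 and 0.23 and the median Tbx5 change 0.15 and 0.16. On chromosomes 12 and 13 the input ratio was -0.20 and -0.18 and the median change -0.22 and -0.21, and the share of lower regions was 23.8% and 20.8%. The inputs of the settings did not overlap on these 4 chromosomes, nor on chromosomes 5, 9 and X. X did not follow, with an input ratio of -0.19 and a median Tbx5 change of 0.04. Chromosome 9 did not either, at -0.11 and 0.01, and chromosome 5 was at -0.11 and -0.07. Median changes of this size are small beside those of the called regions, and with the input ratio of each chromosome as an offset there were 3090 higher and 2405 lower regions.

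**Figure D5:**
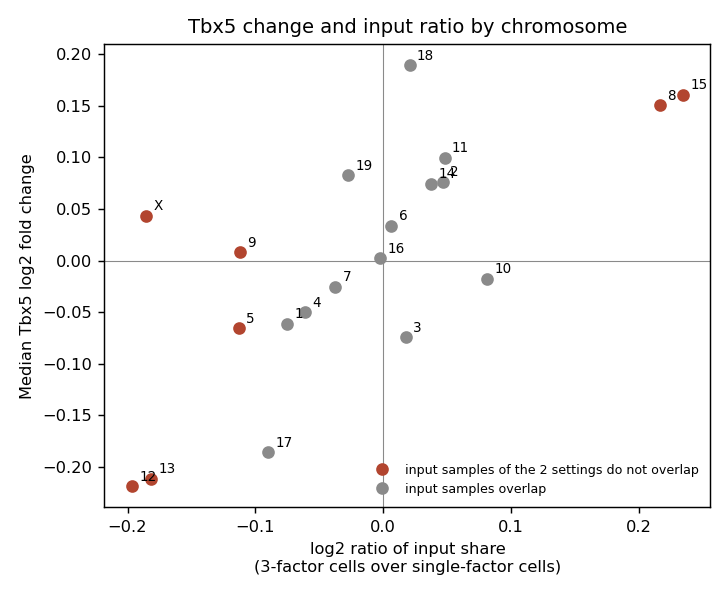
Median Tbx5 log2 fold change of the tested regions of each chromosome against the log2 ratio of that chromosome's share of input counts between 3-factor and single-factor cells; each point is 1 chromosome, named beside it, and red points are chromosomes whose input samples do not overlap between settings. Chromosomes 8 and 15 lie at the upper right and 12 and 13 at the lower left.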

How the data were processed

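The deposited table holds raw, unnormalized counts of reads in each region, 1 column per library. The authors used FastQC, Bowtie2 2.2.4 and featureCounts with the mm9 build, per the submitters' processing notes. The sources used here do not give region selection or duplicate handling. The comparison, region lists and naming rules were chosen with earlier results of these data known.

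Tbx5 with all 3 factors was tested against Tbx5 alone with edgeR 4.0.16 in R (robust quasi-likelihood F test, TMM scaling, filterByExpr with minimum count 10 and minimum total 15, two-sided, Benjamini-Hochberg adjustment over all tested regions, threshold 0.05). No covariate was used. The SE is the log2 fold change divided by the square root of F. ChIP CPM use TMM-scaled totals and input CPM use library totals. Libraries of the same group whose counts agree within sampling noise were added up and treated as 1 sample (numbers 1 and 6 of 3-factor Gata4, and numbers 1 and 3, and 2, 4 and 5, of the 3-factor inputs). The 3 single-factor inputs served as 1 arm. Differences between factor changes came from 1 fit of all 6 ChIP groups.

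Named regions were, among called regions with separate groups, the 10 largest changes each way of above-median level, the 5 of highest level with a log2 change above 1 and the 2 largest per list class. The 5 steady regions of highest level and the 3 longest runs of 1 direction were named without that condition. Of the class and run regions, only examples are described. Classes by the 3-factor lists were added after seeing the data. Gene names and sequences were not used here, because the reference at hand is of another build.

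In 3-factor cells, same-numbered Tbx5 and Gata4 libraries deviated together from their group means (r from 0.19 to 0.39), as did Tbx5 and Mef2c libraries (0.20 to 0.53). Differently numbered libraries gave r from -0.24 to 0.29 with Gata4 and from -0.35 to 0.18 with Mef2c. The numbers were taken to pair the samples across factors, which is least clear for number 3 (0.19 and 0.20). On simulated counts for 15109 regions with 200 changed, the test recovered 23.4% of 2-fold and 90.6% of 4-fold changes, with 4.39% of calls false. Far more regions, 5524 of 16395, were called in the data, so these rates need not hold for this comparison.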

Additional observations from a re-analysis of the deposited data

Results flagged for a closer look

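In the 4 libraries with all 3 factors, the gap between 1 library and the others was large against the range of the group in 5 of 74 checks, and chance alone gives this in about 1 in 20 groups. At chromosome 4, 120647485 to 120647755, replicate 4 was at 4.52 CPM and the other 3-factor libraries were at 14.4 to 14.6 CPM. At chromosome 16, 76103164 to 76103419, replicate 4 was at 49.7 CPM, above the others. At chromosome 6, 91495706 to 91496623, replicate 3 was at 494 CPM, above the others. At chromosome 11, 49624480 to 49625246, replicate 5 was at 379 CPM, under the others. The median over the Mef2c-alone list was 0.25 in replicate 4, above the others at -0.02 to 0.02.

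The Tbx5 change differed from the Gata4 change at 1100 regions and from the Mef2c change at 4070 regions, by edgeR's test of the difference itself.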

How the results depend on the processing

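The counts of higher and lower Tbx5 regions stayed within 1.5 times under every scaling, DESeq2, no filter, no robust estimation and the chromosome offset. They moved under the input-corrected contrast (1071 higher, 612 lower, 1683 in all) and, chosen after seeing the data, with replicate 3 as the only 3-factor library, assumed to vary like the Tbx5-alone libraries (1547 lower). Leaving out single libraries gave 2115 to 3765 higher, 1706 to 2881 lower and 3835 to 6646 called regions. Steady regions numbered 1975 with scaling on regions of low enrichment, 2980 in 1 fit of all ChIP groups, 219 with the input correction, 2901 with replicate 3 only and 3087 to 4721 without single libraries.

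Tbx5 libraries of the 2 settings share only a number (r of -0.03 and 0.03 for numbers 2 and 3); a replicate block gave 3028 higher, 2084 lower and 2399 steady regions. With the block, the Tbx5 change was above and below that of Gata4 at 2649 and 2823 regions and that of Mef2c at 4567 and 3007. Without Gata4 alone number 4 the counts were 1178 and 1788 for Gata4 and 2769 and 2097 for Mef2c, and under library totals the Mef2c counts were 1080 and 3498. Without single Tbx5 libraries these counts were 92 to 608, 378 to 771, 1442 to 2142 and 1004 to 1398. The Mef2c list median with all 3 factors was 0.41 to 0.50 in such fits. The cause of these moves was not tested. No direction reversed among 68 named regions, and 27 lost their call under the input correction. The single-factor inputs, with 97474 to 127871 counts, limit that contrast.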

Other observations

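Few regions had unusually high input. Of the tested regions, 5 had a mean input level at least 5 times the median of 33.1 CPM, a bound chosen after seeing the data, and Tbx5 was higher at 1 and lower at 3 of them.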
